A study of Homo sapiens with 6 samples.

Results

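The genes described here are 125 of the 19821 protein-coding genes that RefSeq places on chromosomes 1 to 22 and X, from gene families known for the spindle, the centromere and the centrosome. They were chosen by symbol: 39 kinesin (KIF), 38 centrosomal protein (CEP), 20 centromere protein (CENP), 4 BUB, 4 AURK, 5 PLK, 8 HAUS and 7 TUBG genes. Many members act elsewhere, such as kinesins of transport and CEP genes of the cilium. The choice by symbol also took AURKAIP1, which encodes a mitochondrial protein and not a kinase, and the readthrough gene BUB1B-PAK6. DNA G-quadruplexes (G4s), four-stranded structures of guanine-rich DNA, were mapped in U2OS cells, an osteosarcoma line, by chromatin immunoprecipitation and sequencing with the G4 antibody BG4. Ctrl cells were left untreated and HD cells received 1,6-hexanediol, an alcohol that dissolves many biomolecular condensates. Each condition had 2 ChIP libraries and 1 input. The sources used here give neither dose nor duration of the treatment. A gene counted as marked when a peak of a list lay within 1 kb of either gene end.

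Kinesins are motors that walk along microtubules or take them apart, and many of them work only in dividing cells. Many CENP proteins form the centromere and the inner kinetochore, and the spindle checkpoint kinase BUB1 works at kinetochores. CEP proteins build centrioles, centrosomes and the base of the cilium, gamma-tubulin (TUBG1) nucleates microtubules there, and the HAUS proteins form augmin, which branches new microtubules inside the spindle. Aurora and Polo-like kinases drive these steps. CEP55 acts last, at the midbody, where it brings in the machinery that cuts daughter cells apart. Neither RNA nor protein was measured here, so nothing below speaks to how much of any of these genes the cells express.

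Each condition had 1 deposited peak list, 3507 peaks in Ctrl and 2269 in HD, so values lack a replicate error, and differences between the conditions could not be set against the spread between libraries. All 2269 HD peak names carry the number of replicate 1. The sources used here do not say whether that list rests on both HD libraries. ChIP fragments at each peak summit were recovered from the authors' fold and −log10 p of that peak. The mean number of ChIP fragments over a base was 3.74 in Ctrl and 5.51 in HD, a ratio of 1.47. Fragment numbers were therefore divided by these means, and the result is called the level, in multiples of the track's own mean. Intervals are exact 95% Poisson intervals, which cover counting error only. The local background that the caller set against each summit, in fragments, is called the input expectation. That it came from the input library is inferred from the scaling of the ChIP track to a control and is not stated in the labels. A gene without a peak is a missing call, and fragments at uncalled sites were not used here.

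Spindle, centromere and centrosome genes carried G4 peaks at 25 of 125 members (20%) in Ctrl, where 10.9% of all protein-coding genes were marked. In HD, 23 members (18.4%) were marked, against 8.11% of all protein-coding genes. Both lists marked 13 members (10.4%, against 5.2% of all protein-coding genes), 12 were marked in Ctrl only (9.6%, against 5.7%) and 10 in HD only (8%, against 2.92%). The remaining 90 members had no peak at an end in either list. Members and other genes may differ in expression, chromatin or GC content, which were not matched, and the part of these in the shares was not tested. The median GC content of the promoter window was 64.0% over the 106 members with a promoter sequence and 62.7% over the 15812 protein-coding genes with one. The median number of CpG sites (C followed by G) in the window was 27.5 and 22, and it was not matched either. Over all genes, promoters marked in either list had a median of 28 CpG sites and unmarked ones 20. With the same number of peaks from each list, 2172, the Ctrl list marked 18 members (14.4%, against 7.83% of all protein-coding genes), 7 of them in Ctrl only (5.6%, against 3.62% of all genes), and 12 were in HD only (9.6%, against 3.91%). Over all genes, too, the Ctrl-only share was below the HD-only share at equal lengths.

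**Figure D1:**
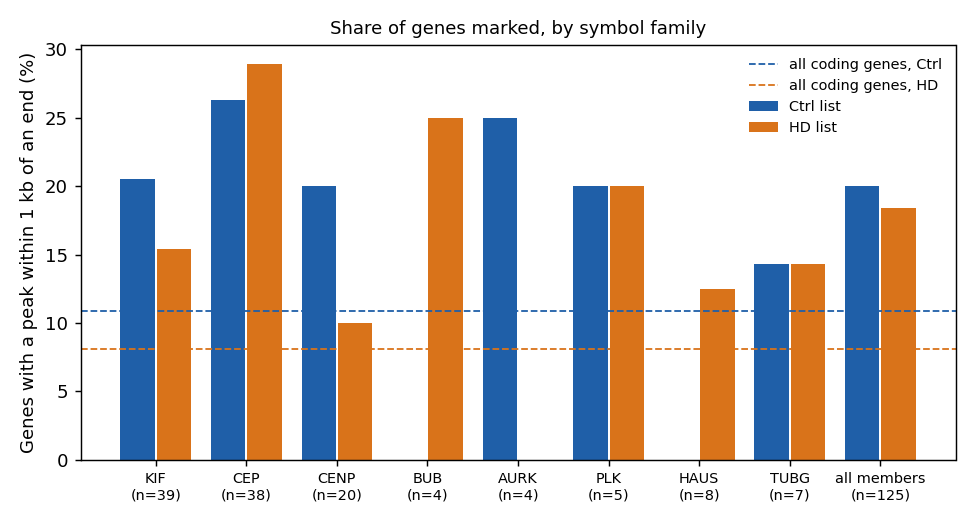
Share of genes with a peak within 1 kb of a gene end (%), by symbol family and for all 125 members, in the Ctrl list (blue) and the HD list (orange). Dashed lines give the share of all protein-coding genes, 10.9% in Ctrl and 8.11% in HD. The CEP bars reach 26.3% and 28.9%, and BUB and HAUS have no Ctrl bar.

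Promoter sequences from RefSeq span 300 bases around the start (250 before, 50 after; GRCh38.p14) for 106 of the 125 members. They were searched on both strands for a G4 motif of 4 runs of GGG or longer, separated by loops of 1 to 7 bases of any kind. The motif was in 26 of 106 member promoters (24.5%) and in 30.1% of all 15812. It was in 5 of the 13 member promoters marked in both lists (38.5%, against 38.8% of all genes in that class), 2 of 10 in Ctrl only (20%, against 35.5%), 2 of 9 in HD only (22.2%, against 32.5%) and 17 of 74 unmarked ones (23%, against 29.1%). At CENPT, 1 of the 5, the peaks did not cover the motif. Of the 26 members with the motif 9 were marked in either list (34.6%), where 17.4% of all protein-coding genes with the motif were. Of the 80 without it, 23 were marked (28.8%), where 13.3% of all genes without it were. Marking used the gene ends, and the start of the window lay at the outer gene end for 95 of the 106 members. KIF24 counted as unmarked, although it had peaks 73 bp (Ctrl) and 1 bp (HD) from its listed start. The first 4 sequences carry the motif and a peak over it. Capitals mark the motif, and runs of C are the motif read on the opposite strand.

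CEP55, Ctrl only, chr10:93496362-93496661, plus strand: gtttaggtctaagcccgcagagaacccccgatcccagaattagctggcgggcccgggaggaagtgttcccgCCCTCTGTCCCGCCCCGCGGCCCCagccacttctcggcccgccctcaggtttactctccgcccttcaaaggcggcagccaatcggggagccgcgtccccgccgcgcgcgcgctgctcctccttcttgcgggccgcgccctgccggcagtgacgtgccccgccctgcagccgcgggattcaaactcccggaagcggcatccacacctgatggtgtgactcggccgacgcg

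CENPX, both lists, chr17:82022829-82023128, minus strand: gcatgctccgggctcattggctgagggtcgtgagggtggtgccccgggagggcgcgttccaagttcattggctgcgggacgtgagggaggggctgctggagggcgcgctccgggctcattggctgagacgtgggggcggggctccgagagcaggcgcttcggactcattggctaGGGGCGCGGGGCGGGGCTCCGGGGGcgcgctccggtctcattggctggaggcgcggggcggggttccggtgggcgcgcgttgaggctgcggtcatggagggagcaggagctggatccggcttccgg

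CEP131, both lists, chr17:81222916-81223215, minus strand: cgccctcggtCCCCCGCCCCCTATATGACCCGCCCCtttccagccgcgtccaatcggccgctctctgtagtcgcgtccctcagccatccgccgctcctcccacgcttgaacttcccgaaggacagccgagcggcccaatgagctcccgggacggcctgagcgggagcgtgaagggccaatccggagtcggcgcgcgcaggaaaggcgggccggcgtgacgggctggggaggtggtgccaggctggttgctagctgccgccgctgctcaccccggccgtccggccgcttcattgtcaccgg

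CEP43, both lists, chr6:166999147-166999446, plus strand: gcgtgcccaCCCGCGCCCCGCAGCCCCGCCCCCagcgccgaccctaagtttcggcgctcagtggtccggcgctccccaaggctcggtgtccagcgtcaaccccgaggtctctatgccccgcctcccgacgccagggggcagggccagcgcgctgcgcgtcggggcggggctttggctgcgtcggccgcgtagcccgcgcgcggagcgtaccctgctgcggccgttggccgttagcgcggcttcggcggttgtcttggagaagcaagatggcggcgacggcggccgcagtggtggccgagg

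In CENPX the motif is on the strand of the gene, and in the other three it is on the opposite strand. CEP55 has 17 and CENPX has 20 runs of GGG or longer on the richer strand, counted over the whole window, where the median of all promoters was 9. The next 3 promoters carried peaks without the motif. They are shown for the HD-only member with the highest fold (BUB1), the member with the highest fold in HD (KIF21A) and the member with the most fragments in Ctrl (CEP192). Capitals here mark every run of 3 or more G or C.

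BUB1, HD only, chr2:110678014-110678313, minus strand: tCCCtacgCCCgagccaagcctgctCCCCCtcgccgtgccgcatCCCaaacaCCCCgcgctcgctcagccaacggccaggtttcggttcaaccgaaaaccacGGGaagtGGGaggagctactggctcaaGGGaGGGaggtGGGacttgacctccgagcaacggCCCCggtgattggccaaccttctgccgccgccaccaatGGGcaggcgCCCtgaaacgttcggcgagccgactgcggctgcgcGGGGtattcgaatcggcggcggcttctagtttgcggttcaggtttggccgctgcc

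KIF21A, both lists, chr12:39443071-39443370, minus strand: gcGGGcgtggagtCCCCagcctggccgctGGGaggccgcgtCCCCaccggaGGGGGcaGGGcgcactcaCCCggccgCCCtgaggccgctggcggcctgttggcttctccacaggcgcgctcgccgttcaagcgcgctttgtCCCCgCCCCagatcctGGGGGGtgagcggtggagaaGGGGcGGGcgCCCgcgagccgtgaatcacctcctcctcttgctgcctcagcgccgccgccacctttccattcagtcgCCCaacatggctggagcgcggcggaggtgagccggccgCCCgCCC

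CEP192, both lists, chr18:12991112-12991411, plus strand: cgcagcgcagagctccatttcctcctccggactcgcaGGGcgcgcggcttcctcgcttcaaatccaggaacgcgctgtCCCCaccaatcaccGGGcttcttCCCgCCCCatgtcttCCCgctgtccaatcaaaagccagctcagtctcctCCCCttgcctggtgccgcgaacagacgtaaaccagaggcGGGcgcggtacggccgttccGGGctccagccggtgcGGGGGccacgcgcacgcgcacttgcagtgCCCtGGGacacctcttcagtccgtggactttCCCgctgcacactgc

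On the richer strand BUB1 and CEP192 have 7 such runs and KIF21A has 10, and no 4 of them are spaced by loops of at most 7 bases. A missing match says only that these letters are not in this window, and peaks often reached beyond it. The peaks of CENPT, CEP63, CEP95 and CEP120 lay wholly outside this window. Of the marked members, 23 of 32 with a promoter sequence had no match. With loops of up to 12 bases the motif was in 42 of 106 member promoters (39.6%) and in 45.1% of all.

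**Figure D2:**
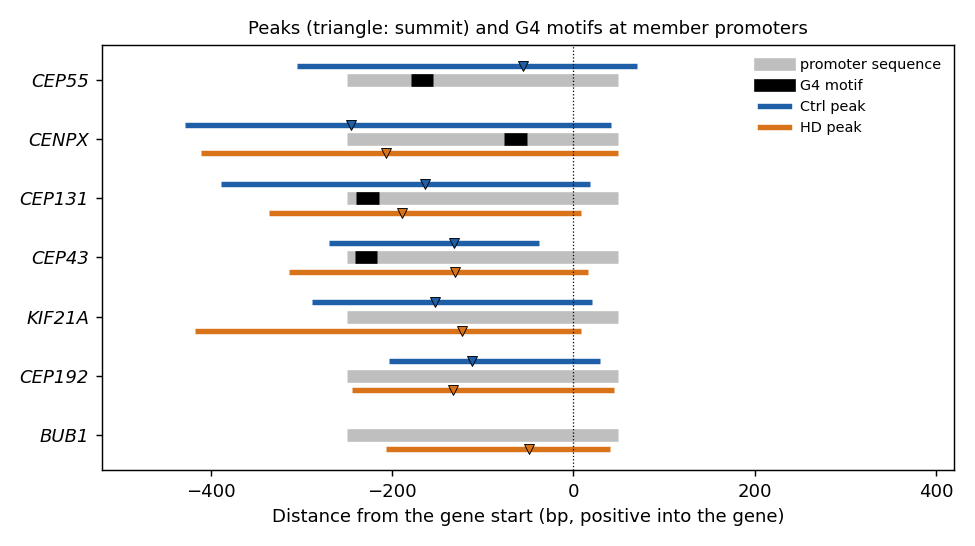
Ctrl peaks (blue) and HD peaks (orange) with their summits (triangles), and G4 motifs (black) within the 300-base promoter window (grey), by distance from the gene start in bp, positive into the gene. At CEP55, CENPX, CEP131 and CEP43 the peaks cover the motif. At KIF21A, CEP192 and BUB1 the window holds no motif.

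The CEP genes were the family with the largest number of marked members. In Ctrl 10 of 38 (26.3%, against 10.9% of all protein-coding genes) and in HD 11 of 38 (28.9%, against 8.11%) were marked, with CEP43, CEP95, CEP120, CEP131 and CEP192 in both lists. CEP192, the scaffold that recruits PLK4 and Aurora A to the centrosome, held 48 fragments (35.4 to 63.6) in Ctrl and 63 (48.4 to 80.6) in HD. Its level was 12.8 (9.47 to 17.0) in Ctrl and 11.4 (8.78 to 14.6) in HD, the highest of the family in each list. Its input expectation was also high, at 12.9 fragments in Ctrl and 13.7 in HD, so that the peak held 3.71 times (2.73 to 4.92) and 4.61 times (3.54 to 5.90) the input expectation. These intervals take the input as known. CEP131, a protein of centriolar satellites, held 35 fragments (24.4 to 48.7) in Ctrl and 43 (31.1 to 57.9) in HD, a level of 9.36 and 7.80. CEP43, which acts in building the primary cilium, held 29 fragments (19.4 to 41.6) in Ctrl and 45 (32.8 to 60.2) in HD, a level of 7.76 and 8.16. The Ctrl and HD intervals of the level overlapped at each of these 3 genes.

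Genes of centriole duplication were marked at 4 of 11 (36.4%) in each list, against 10.9% of all protein-coding genes in Ctrl and 8.11% in HD. CEP192 and CEP120, which lengthens the new centriole, were marked in both, and CEP120 held 24 fragments (15.4 to 35.7) in Ctrl and 36 (25.2 to 49.8) in HD. CEP63 and CEP76 were marked in Ctrl only, and CEP57 and CEP152 in HD only. CEP63 and CEP152 encode partners in 1 ring around the mother centriole. CEP63 held 25 fragments (16.2 to 36.9) in Ctrl, in a peak with its summit 342 bp into the gene that lay nearer an end of ANAPC13. CEP152, the scaffold that hands PLK4 to the centriole, held 23 fragments (14.6 to 34.5) in HD, the lowest number of all members marked there. CEP76, which restrains repeated duplication, held 29 fragments in Ctrl against 10.8 from input, 2.69 times (1.80 to 3.86) the input and the lowest of the Ctrl members. CEP57 held 30 fragments (20.2 to 42.8) (level 5.44) in HD, in a peak nearer an end of FAM76B. The 16 appendage and cilium genes were marked at 3 (18.8%) in each list. CEP131 and CEP43 were marked in both lists, the distal appendage gene CEP89 in Ctrl only (21 fragments) and CEP126 in HD only (25 fragments). CEP250 and CEP68, whose proteins tie the centrosomes of a pair together, were marked in HD only, with 29 (19.4 to 41.6) and 39 fragments (27.7 to 53.3). CEP95, a protein of the centrosome, was marked in both, with 32 (21.9 to 45.2) and 50 fragments (37.1 to 65.9). CEP70 (26 fragments) was also marked in HD only, and CEP112 in Ctrl only, with 26 fragments (17.0 to 38.1) and its summit 105 bp into the gene. Among the 22 CEP genes without a peak at an end were CEP135, CEP164, CEP170, CEP290 and CEP350.

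CEP55 had the highest level of all members marked in a single list. Its Ctrl peak (chromosome 10, hg38, 93496307 to 93496682) spanned the gene start, covered the C-rich G4 motif of its promoter and held 41 fragments (29.4 to 55.6) where input gave 4.42, which is 9.27 times (6.65 to 12.6) the input. By fold it ranked at percentile 99.1 of the Ctrl list. Its level of 11.0 (7.87 to 14.9) would correspond to 60.5 fragments at the depth of the HD track. In the HD list 82.0% of the peaks held that number or fewer, and summits at the genome-wide input expectation were called with as few as 20. CEP55 was singled out by this level, and HD fragments at its start were not used, so a difference between the conditions was not tested. BUB1 stood the other way round. Its HD peak (chromosome 2, 110678023 to 110678269), in a promoter without the motif, held 37 fragments (26.1 to 51.0) where input gave 6.53, a level of 6.71 (4.73 to 9.25) and, in the authors' deposited table, the highest −log10 q (7.75) of the members marked in HD only. The same level would correspond to 25.1 fragments in the Ctrl track, a number not exceeded by 38.9% of Ctrl peaks. The nearest Ctrl peak was 212 kb away.

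Kinesin genes were marked at 8 of 39 (20.5%) in Ctrl and 6 of 39 (15.4%) in HD, against 10.9% and 8.11% of all protein-coding genes. The mitotic kinesins had peaks at 4 of 14 (28.6%) in each list. The other kinesins had them at 4 of 25 (16%) in Ctrl and 2 of 25 (8%) in HD, the latter near the share of all genes. KIF2A, which shortens microtubules at spindle poles, held 23 fragments (14.6 to 34.5) in Ctrl and 37 (26.1 to 51.0) in HD. KIF20B, a motor of cytokinesis, held 25 (16.2 to 36.9) and 35 (24.4 to 48.7). KIF22, which pushes chromosome arms toward the spindle equator, held 28 (18.6 to 40.5) and 31 (21.1 to 44.0). These 3 mitotic kinesins had levels between 5.62 and 7.49. KIF2C, the depolymerase that frees wrongly attached kinetochores, held 27 fragments (17.8 to 39.3) in Ctrl only, with the nearest HD peak 60.3 kb away. KIF18A, which damps the movements of chromosomes at the spindle equator, held 27 fragments (17.8 to 39.3) in HD only, in a peak also within 1 kb of an end of METTL15, and the nearest Ctrl peak was 5592 kb away. Of the others, KIF21A, a kinesin that slows microtubule growth, was marked in both lists, with 24 fragments (15.4 to 35.7) in Ctrl and 42 (30.3 to 56.8) in HD. By fold it ranked at percentile 66.3 of the Ctrl list and 98.1 of the HD list. These ranks are within each list, and the HD level of KIF21A was 1.19 times (0.702 to 2.05) its Ctrl level, an interval that includes 1. KIF16B, a motor of endosomes, held 27 fragments (17.8 to 39.3, level 7.22) in Ctrl only, with its summit 32 bp upstream of the start. The conventional kinesin KIF5B (23 fragments) and KIF6 (20 fragments) were also marked in Ctrl only. KIF9, like KIF6 a kinesin of motile cilia, held 35 fragments (24.4 to 48.7, level 6.35) in HD only. The spindle motors KIF11, KIF14, KIF15, KIF20A and KIF23 carried no peak at an end in either list.

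Centromere genes were marked at 4 of 20 (20%, against 10.9% of all protein-coding genes) in Ctrl and 2 of 20 (10%, against 8.11%) in HD, the latter near the share of all genes. CENPX, a histone-fold protein that works at the kinetochore and in the Fanconi anaemia pathway, held 44 fragments (32.0 to 59.1) in Ctrl and 68 (52.8 to 86.2) in HD. These were 8.45 times (6.14 to 11.3) and 6.94 times (5.39 to 8.79) the input, and in the authors' deposited table CENPX had the highest −log10 q of the members in each list, 19.0 and 19.8. Its peak also lay within 1 kb of an end of LRRC45, and the Ctrl summit was nearer to that end than to CENPX. CENPT, a partner of CENPX in the same complex, held 25 fragments (16.2 to 36.9) in Ctrl and 24 (15.4 to 35.7) in HD. The CENPT summits lay 983 and 888 bp inside the gene and nearer an end of NUTF2, so these peaks marked CENPT only through the width of the window. CENPO (25 fragments) and CENPL (22 fragments) were marked in Ctrl only, and the CENPO peak was nearer an end of PTRHD1. No peak at an end was called for the centromeric histone gene CENPA, for CENPB or CENPC, or for the kinetochore motor gene CENPE.

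The kinase genes and the microtubule nucleators had at most 1 marked member per family, too few to set against the share of all genes. PLK3, a Polo-like kinase of stress responses, was the marked one of 5 PLK genes, with 32 fragments (21.9 to 45.2) in Ctrl and 44 (32.0 to 59.1) in HD, and a second Ctrl peak of 22 fragments lay 522 bp upstream. AURKA, the Aurora kinase of the spindle poles, was marked in Ctrl only, with 28 fragments (18.6 to 40.5) against 7.55 from input, in a peak that also lay within 1 kb of an end of CSTF1. AURKB, PLK1 and PLK4 had no peak at an end. TUBG1 held 23 fragments (14.6 to 34.5) in Ctrl and 38 (26.9 to 52.2) in HD and was the marked one of 7 TUBG genes. HAUS3 was the marked one of 8 augmin genes, in HD only, with 25 fragments (16.2 to 36.9) in a peak nearer an end of POLN.

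**Figure D3:**
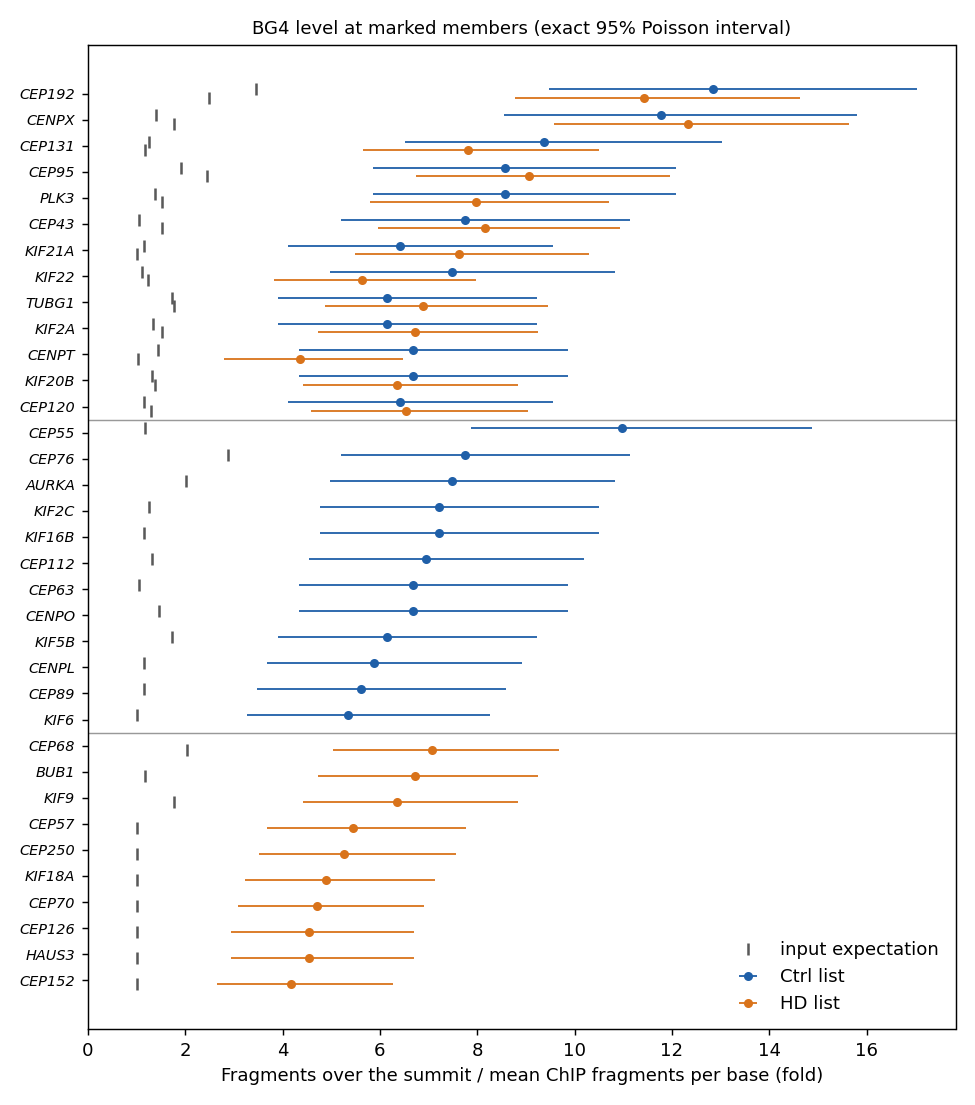
Level of BG4 ChIP fragments over the strongest summit of each marked member, in multiples of the track's mean fragments per base, in the Ctrl list (blue) and the HD list (orange), with exact 95% Poisson intervals. Grey ticks give the caller's input expectation on the same scale. Horizontal lines separate the 13 genes in both lists, the 12 in Ctrl only and the 10 in HD only. CEP192 and CENPX stand highest, and CEP55 is the highest of the genes in 1 list.

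All 13 members marked in both lists had overlapping peaks in the 2 lists. The same share was not counted over the 1030 protein-coding genes marked in both lists, so it is not called particular to the members. The overlap covered at least 66.4% of the Ctrl peak (CEP95) and 69.7% of the HD peak (KIF21A). The HD level divided by the Ctrl level ran from 0.651 (0.356 to 1.19) at CENPT to 1.19 (0.702 to 2.05) at KIF21A, with a median of 1.02. The exact interval of this ratio included 1 at all 13, and it was wide, so that a change within these bounds would not have been seen at this depth. KIF22 had a ratio of 0.751 (0.436 to 1.30), CEP131 of 0.833 (0.521 to 1.34) and CEP192 of 0.890 (0.602 to 1.32). CENPX had 1.05 (0.707 to 1.57) and TUBG1 1.12 (0.651 to 1.97). Over all 839 overlapping peak pairs at ends of protein-coding genes the median ratio was 0.889, with quartiles of 0.771 and 1.02. The input expectation, divided by the same means, also differed between the lists at some of these genes, with 1.05 in Ctrl and 1.52 in HD at CEP43, 1.90 and 2.44 at CEP95, and 3.46 and 2.48 at CEP192.

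**Figure D4:**
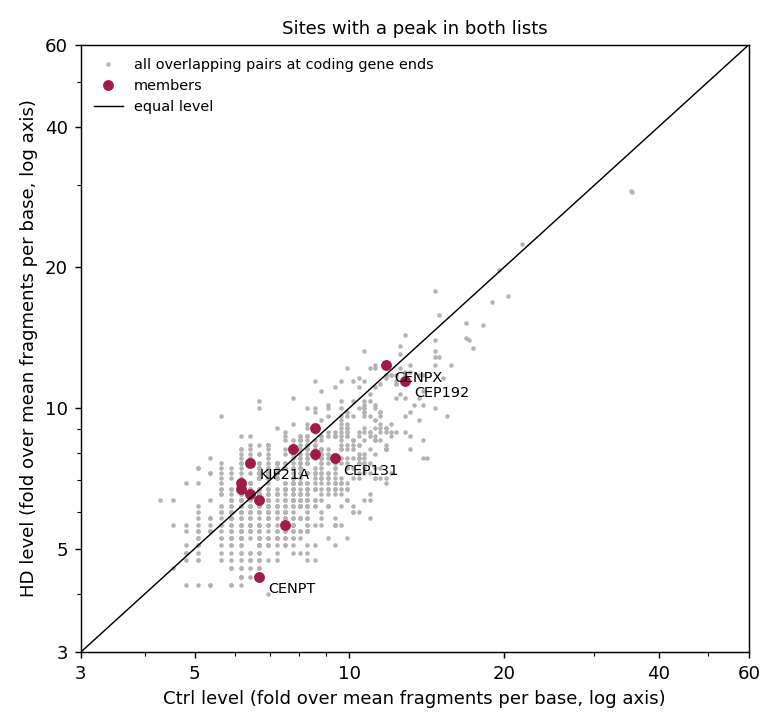
HD level against Ctrl level, both in multiples of the track's mean fragments per base on log axes, for the 839 overlapping peak pairs at ends of protein-coding genes (grey) and the 13 members (red). The line marks equal levels. Members lie on both sides of it, from CENPT at a ratio of 0.651 to KIF21A at 1.19.

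The strength of the members marked in 1 list was set against the depth of the other track. The 12 Ctrl-only members had 20 to 41 fragments (median 25.5) and a median level of 6.82, against 7.49 for the 13 members in both lists. At equal level they would have 29.5 to 60.5 fragments in the HD track, and for 6 of the 12 that is above the median of all HD peaks, 38. The 10 HD-only members had 23 to 39 fragments (median 28) and a median level of 5.08, against 7.62 in HD for those in both lists. At equal level they would have 15.6 to 26.4 fragments in the Ctrl track, where the lowest number at a called summit was 15. None of the 10 would exceed the median of all Ctrl peaks, 28. Over all marked protein-coding genes the same order held, with median levels of 6.69 in Ctrl only against 7.76 in both, and 5.62 in HD only against 6.89 in both. The HD list was called from a deeper track, and the part of depth in which genes were called was not tested. Levels of single-list members come from the list that called them, which can favour high numbers. Fragments at these sites in the other track were not used.

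The peaks lay at gene starts, as was usual over all genes. Of the 848 protein-coding genes with a promoter sequence that both lists marked, 817 were marked in both at the start. Where the strand was known, all 24 Ctrl and all 22 HD peaks of members were at the start and none at the far end. Of these summits, 20 in Ctrl and 18 in HD were upstream of the start, and 4 in each were inside the gene. In Ctrl 20 of 26 summits, and in HD 20 of 23, were at most 250 bp from the gene end. Summit positions were not counted over all genes. Several member peaks also reached a neighbouring gene. In Ctrl 9 of 26 member peaks (34.6%) also lay within 1 kb of an end of another protein-coding gene, against 21.5% of all 1811 gene-end peaks, and in HD 9 of 23 (39.1%) did, against 21.8% of 1318. The neighbour was DDX5, an RNA helicase gene, at CEP95, RETREG3 at TUBG1 and KLHL18 at KIF9. When each peak was given to the gene with the nearest end, 19 members (15.2%) were marked in each list, against 9.0% of all protein-coding genes in Ctrl and 6.57% in HD. Those lost in Ctrl were CENPL, CENPO, CENPT, CENPX, CEP63 and CEP89, and those lost in HD were CENPT, CEP57, HAUS3 and TUBG1.

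**Figure D5:**
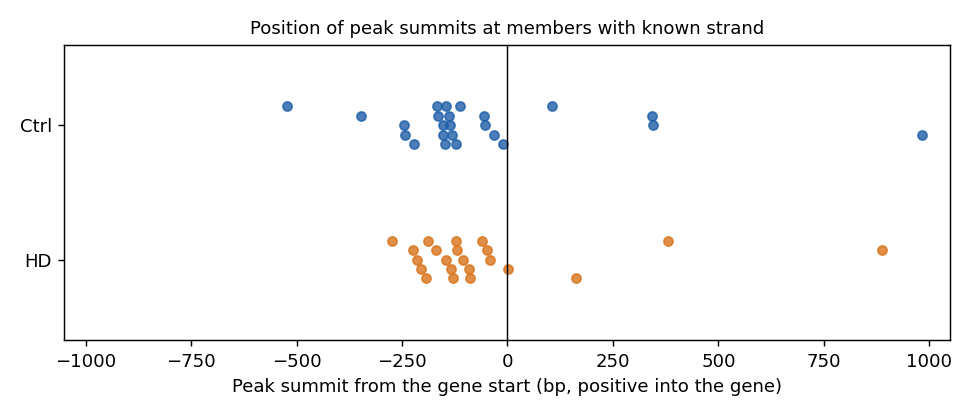
Distance of peak summits from the gene start, in bp and positive into the gene, for members with known strand: 24 Ctrl peaks (blue) and 22 HD peaks (orange), spread vertically for legibility. Most summits sit within 250 bp upstream of the start, and the point farthest into the gene in each list is CENPT.

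Other genes of the same machinery, 98 in 4 lists, were marked at 18 (18.4%) in Ctrl and 14 (14.3%) in HD, against 10.9% and 8.11% of all protein-coding genes. With equal list lengths the Ctrl number was 9 (9.18%, against 7.83% of all genes). Giving each peak to the gene with the nearest end left 13 in Ctrl (13.3%, against 9.0% of all genes). In HD it left 11 (11.2%, against 6.57%). Some of the peaks described below thus lay nearer an end of another gene. Kinetochore and checkpoint genes were marked at 4 of 32 in Ctrl (12.5%, near the 10.9% of all genes) and 5 in HD (15.6%, against 8.11%). SKA2 was in both lists, with 42 and 50 fragments. CDCA8, a subunit of the complex that activates Aurora B, had 34 fragments (23.5 to 47.5) and SGO1, the protector of cohesion at centromeres, 20, both in Ctrl only. HJURP, the chaperone that loads CENP-A, had 33 fragments (22.7 to 46.3), CDC20 38, DSN1 30 and ZW10 22, all in HD only. Centriole and centrosome genes were marked at 4 of 28 in Ctrl (14.3%) and 3 in HD (10.7%), both near the shares of all genes. PCNT, the scaffold of the pericentriolar material, had 30 and 31 fragments in Ctrl and HD, at sites that did not overlap. STIL, a founder of new centrioles, had 32 fragments and CROCC 27, both in HD only. POC1A had 24 fragments in Ctrl only. MZT2A (24 fragments) and MZT2B (38 fragments) were marked in Ctrl only and are near-identical copies, so their reads may not be told apart.

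Spindle assembly genes were marked at 6 of 22 in Ctrl (27.3%, against 10.9% of all genes) and 2 in HD (9.09%, near the 8.11% of all genes). PRC1, which bundles the midzone, had 24 (15.4 to 35.7) and 42 fragments (30.3 to 56.8), and NUMA1, an organiser of spindle poles, had 19 and 31. TPX2, the activator of Aurora A, had 24, RAN 29, DLGAP5 33 and CLTC 29 fragments in Ctrl only. Genes of cytokinesis and abscission were marked at 4 of 16 (25%) in each list, against 10.9% of all genes in Ctrl and 8.11% in HD. RHOA, the GTPase of the contractile ring, had 39 and 46 fragments, SPAST, which severs midbody microtubules, 39 and 33, and ZFYVE19, which delays abscission, 25 in each list, in the deeper HD track. IST1 had 19 fragments in Ctrl only, and ANLN, a scaffold of the contractile ring, 31 (21.1 to 44.0) in HD only. ECT2, RACGAP1 and the midbody partners of CEP55, TSG101 and PDCD6IP, carried no peak at an end in either list.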

How the data were processed

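BG4 ChIP-seq peak lists of U2OS cells, without and with 1,6-hexanediol, were used. Each condition has 1 list, and its ChIP libraries both carry that list's name in the labels. Per the submitters' processing notes, the tools were MACS2 2.2.7.1, Bowtie2 2.5.0, FastQC 0.11.9 and SAMtools, with hg38. The sources used here give no settings. For each peak the authors deposited an integer score, a fold ratio over local background, −log10 p, −log10 q and a summit. The −log10 q values in the authors' deposited table start at 1.31 in Ctrl and 1.30 in HD. Input files were not analysed here.

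Fragments over a summit (pileup divided by the caller's scale, 0.927 in Ctrl and 0.715 in HD) were recovered as the whole number that reproduces fold and −log10 p within 0.01, for 3452 of 3507 Ctrl and 2220 of 2269 HD peaks and all member peaks. At 1 member peak, CEP43 in Ctrl, 2 numbers matched and the closest was taken. The step was chosen after the files were seen. It was run on simulated peaks built with the same formula, which cannot show that the deposited values follow that formula. Gene ends and promoters came from RefSeq tables of GRCh38.p14, and 783 genes outside chromosomes were left out. Named genes are all marked members and the marked genes of the 4 other lists, of which 1 is not reported here, and sequences are shown for members with strong peaks. The members and lists were chosen with earlier results of these data known. No list was tested. Python 3.11.15, pandas 2.3.3 and scipy 1.17.1 were used. Alternatives were windows of 500 bp and 2 kb, −log10 q of at least 3, equal list lengths, summits only, 1 gene per peak and gene starts only.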

Additional observations from a re-analysis of the deposited data

How the results depend on the processing

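The numbers of marked members stayed within 1.5 times their main values under windows of 500 bp and 2 kb, −log10 q of at least 3, summits only, 1 gene per peak, gene starts only and without AURKAIP1 and BUB1B-PAK6: 19 to 25 in Ctrl, 19 to 23 in HD and 10 to 13 in both lists. With 2172 peaks from each list, 7 members were marked in Ctrl only (12 otherwise), where AURKA, CEP76, CEP89, KIF5B and KIF6 lost their call, and 9 other pathway genes were marked in Ctrl (18 otherwise). KIF2A and TUBG1 also lost their Ctrl call there and counted as HD only. CENPT lost its call in each list with a window of 500 bp. With loops of up to 12 bases, 42 member promoters held the G4 motif (26 otherwise). No paired analysis was possible because each condition has 1 peak list and no value per library, and for the same reason no replicate could be left out. Counting error limits the comparison of levels, with intervals of the HD to Ctrl ratio from 0.356 to 2.05 over the 13 shared members.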

Other observations

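Peaks also lay inside member genes, over 1 kb from either end, in 5 of the 125 members, with 5 such peaks in Ctrl and 4 in HD. The share of all protein-coding genes with such a peak was not counted, so these numbers are a description only. HAUS7, KIF24 and CEP72 had no peak at an end. HAUS7, an augmin gene on the X chromosome, had a Ctrl peak of 29 fragments (19.4 to 41.6, level 7.76), 117 bp from another start that RefSeq lists for the gene. KIF24, a kinesin that acts on centriolar microtubules, had peaks of 25 fragments in Ctrl and 34 in HD at 73 and 1 bp from its listed start, which lies inside the annotated gene and near an end of NUDT2, and another Ctrl peak of 20 fragments lay 14.3 kb from the outer end. CEP72, a gene of centriolar satellites, had peaks far from its start, 37.2 kb in Ctrl (34 fragments, fold 2.32) and 37.0 kb in HD (52 fragments, fold 3.82), with a second HD peak close by (48 fragments, fold 3.53). KIF9 had a Ctrl peak 15.8 kb from its start (24 fragments), apart from its HD peak at the start, and CEP112 had an HD peak 548 kb from its start (50 fragments, fold 2.62), apart from its Ctrl peak at the start.

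After the promoter sequences had been seen, they were also searched for 2 elements known from promoters of cell cycle genes, on both strands: the CCAAT box and the cell cycle genes homology region (CHR, read as TTTGAA and its variant with C as TTCGAA). The CCAAT box was in 54 of 106 member promoters (50.9%) and in 36.4% of all 15812, and a CHR match was in 36 (34%) and in 13.5%. Both were present in 25 members (23.6%) and in 5.65% of all genes. Marked and unmarked members held both at 10 of 32 (31.2%) and 15 of 74 (20.3%). This split was not made over all genes, so it cannot be called particular to the members. Over all genes, marked and unmarked promoters also differed in median GC content (67.3% and 61.7%). CENPX has 5 CCAAT matches in 300 bases, CEP57 has 4, and BUB1 and KIF20B have 2 each with 1 and 2 CHR matches. No match of either element overlapped a G4 motif in a member promoter. Such overlap was also rare over all genes, at 107 of 5749 promoters with a CCAAT box and 3 of 2141 with a CHR match. A match is a description and not a site, and no test was made.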
